A study of Mus musculus with 30 samples.

Results

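Hox genes encode homeodomain transcription factors that lie in clusters, and in the embryo their order along a cluster follows the order of their expression from head to tail. Genes of low paralog number mark the hindbrain and neck, those of middle number the trunk, and those of high number the lumbar, sacral and tail regions and the distal limb. Neurons keep part of this positional code after birth, and Hox proteins bind DNA together with Pbx and Meis partners. The Hox genes described here are the protein-coding rows of the deposited table whose symbol is Hox followed by a cluster letter from a to d and a paralog number. The rule found 39 genes among 56686 rows.

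Sensory neurons of the trunk and limbs have their cell bodies, wrapped by glia, in the dorsal root ganglia. Ganglia L3 to L5 of both sides were taken from wild-type male C57BL/6J mice, whose age and doses the labels do not give, and total RNA was sequenced after ribosomal RNA was removed. Mice had received CVAD, cyclophosphamide, dexamethasone or saline and were perfused on day 2, or had received CVAD, cyclophosphamide, vincristine, doxorubicin, dexamethasone or saline and were perfused on day 8. CVAD is the usual name of a chemotherapy regimen that combines cyclophosphamide, vincristine, doxorubicin and dexamethasone. Each of the 10 groups has 3 libraries, 30 in all. The labels do not say whether a library is 1 animal or a pool, so p-values measure only the spread between these libraries.

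Levels are in TPM, a transcript abundance scaled for gene length and for the total of the library, so they can be set side by side between genes. Read depth is unknown, and no counting error can be given. The markers of sensory neurons were all present, with a summed level of 1413 to 1949 TPM per library over 10 genes. All 6 Schwann cell markers summed to 1197 to 1760 TPM. All ganglia were taken from the range L3 to L5, so Hox levels at other positions of the body axis were not analysed here. The share of each ganglion level in a library is not given in the sources used here. Whether libraries differ in that share was not tested. In whole ganglia, fewer cells of a type and less RNA per cell cannot be told apart.

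Hox transcripts made up 0.0628 to 0.0805% of each library, a sum of 627.7 to 804.6 TPM. A gene was tested where it reached 1 TPM in at least 3 libraries, which 32 of the 39 Hox genes did. The other 7 were Hoxa13, Hoxb1, Hoxb13, Hoxc12, Hoxc13, Hoxd12 and Hoxd13, and these were the genes with a mean below 1 TPM. The step is wide: the lowest mean among the tested genes was 1.73 TPM, for Hoxa11, and the highest among the others was 0.0693 TPM, for Hoxc12. A mean of at least 20 TPM was reached by 18 genes, and 27 genes had at least 1 TPM in every library. The cluster sums had medians of 201.2 TPM for Hoxa, 179.7 for Hoxb, 187.4 for Hoxc and 131.5 for Hoxd, and the highest Hoxd library, at 162.03 TPM, was below the lowest Hoxa library, at 173.96.

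**Figure D1:**
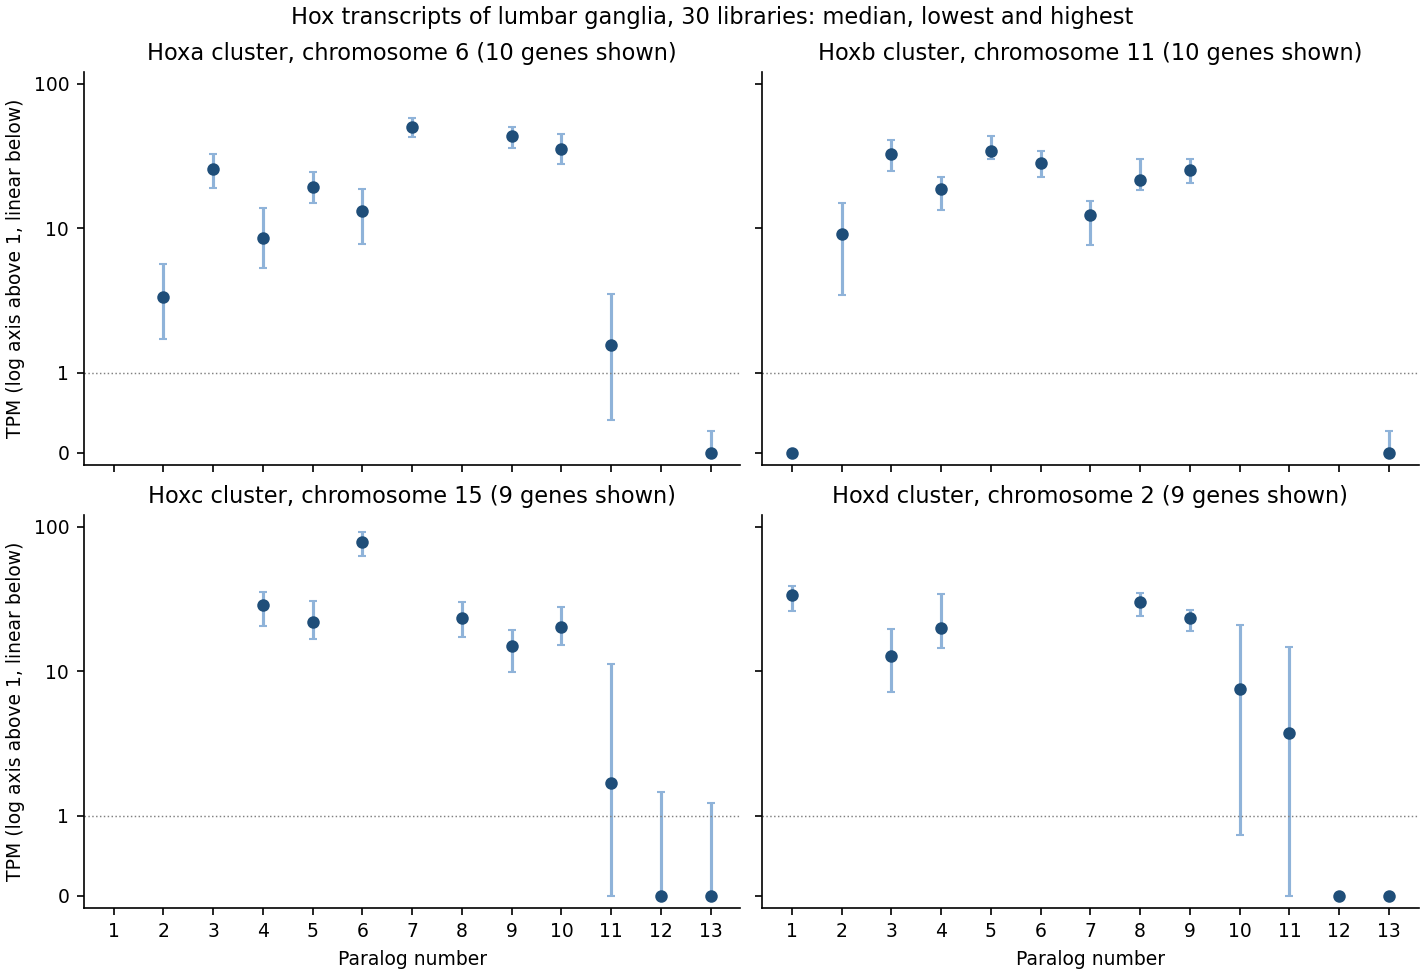
Level of the Hox genes described against their paralog number, 1 panel for each cluster; points are medians over 30 libraries and bars run to the lowest and highest library, in TPM on an axis that is logarithmic above 1 and linear below (dotted line at 1 TPM). In the Hoxa and Hoxc clusters the highest level is at a middle gene and in the Hoxd cluster at Hoxd1, and medians are at 0 at paralogs 12 and 13; the longest bars are those of Hoxd10, Hoxd11 and Hoxc11.

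The Hoxa cluster lies on the minus strand of chromosome 6. Hoxa2, which specifies the second pharyngeal arch, averaged 3.52 ± 0.946 TPM (SD, n = 30 libraries, as for the means that follow). Hoxa3, a gene of the neck and pharynx, averaged 25.04 ± 3.23 TPM and Hoxa4 8.86 ± 2.03 TPM. Hoxa5, which acts in phrenic motor neurons and the lung, averaged 19.4 ± 2.41 TPM and Hoxa6 13.3 ± 2.87 TPM. The cluster was highest at its next genes, with 50.4 ± 4.11 TPM for Hoxa7, 43.5 ± 3.84 for Hoxa9, also known from blood progenitors, and 35.3 ± 4.47 for Hoxa10, a gene of the lumbosacral region and the uterus. Hoxa11, which shapes forearm and kidney, averaged 1.73 ± 0.859 TPM. Hoxa13, a gene of digits and hindgut, was above 0 in 1 library, at 0.275 TPM.

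The Hoxb cluster spans chromosome 11 from 96085142 to 96259082 on the plus strand, in the coordinates of the table. Hoxb1, which defines a segment of the hindbrain, was at 0 in all 30 libraries. Hoxb2 averaged 8.72 ± 3.20 TPM, Hoxb3 32.2 ± 3.90 and Hoxb4, known from blood stem cells, 17.96 ± 2.29. Of the middle genes, Hoxb5 averaged 34.96 ± 3.35 TPM, Hoxb6 27.99 ± 2.63 and Hoxb7 12.2 ± 1.80. Hoxb8, whose loss in mice alters sensation and grooming, averaged 22.3 ± 3.22 TPM. Hoxb9, a gene of the thoracic level, averaged 25.2 ± 2.29 TPM. Hoxb13, a gene of the tail and prostate, was above 0 in 1 library, at 0.268 TPM.

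The Hoxc cluster spans chromosome 15 from 102829538 to 102945278 on the plus strand and holds the most abundant Hox gene. Hoxc6, which specifies motor neurons of the forelimb level, averaged 78.7 ± 7.07 TPM. Its lowest library, at 62.4 TPM, was above the highest library of every other Hox gene, the next being Hoxa7 at 58.3 TPM. Hoxc4 averaged 28.7 ± 4.28 TPM, Hoxc5 22.4 ± 3.54 and Hoxc8, of brachial motor neurons, 23.1 ± 2.81. Hoxc9, which specifies thoracic motor columns, averaged 14.8 ± 2.07 TPM. Hoxc10, of lumbar motor neurons, averaged 20.4 ± 3.22 TPM and Hoxc11 2.42 ± 2.66.

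The Hoxd cluster spans chromosome 2 from 74498654 to 74595486 on the plus strand. Its most anterior gene was also its most abundant: Hoxd1, which shapes the circuits of pain-sensing neurons in mice, averaged 32.6 ± 3.75 TPM. Its paralog Hoxb1 was at 0 in every library. Hoxd3 averaged 12.5 ± 2.90 TPM, Hoxd4 21.9 ± 5.22, Hoxd8 30.04 ± 2.99 and Hoxd9 23.2 ± 2.08. Hoxd10, which acts with Hoxc10 in lumbar motor neurons, averaged 7.48 ± 5.07 TPM and Hoxd11, a partner of Hoxa11 in forearm and kidney, 4.38 ± 3.70. Hoxd12 and Hoxd13, genes of digits and genitalia, were at 0 in all 30 libraries.

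By paralog number the summed median level ran from 11.8 TPM at paralog 2 to a high of 121.0 at paralog 6. It was 107.4 TPM at paralog 9, 63.9 at paralog 10 and 7.16 at paralog 11. Paralogs 12 and 13 each had a median of 0. Paralogs 10 to 13 together held 7.19 to 13.9% of Hox TPM, with a median of 10.1%. Within a paralog number the members differed widely: means ran from 7.48 to 35.3 TPM at paralog 10 and from 13.3 to 78.7 TPM at paralog 6. In order of median level, neighbours mostly overlapped. Hoxc6 was above Hoxa7 in 30 of 30 libraries, Hoxa9 above Hoxa10 in 30 and Hoxd10 above Hoxd11 in 29, while Hoxa10 was above Hoxb5 in 15 and Hoxc11 above Hoxa11 in 15.

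Hoxc12 and Hoxc13, a gene of hair and nail, were above 0 in 2 libraries. Doxorubicin replicate 3 had 1.45 TPM of Hoxc12 and 1.22 TPM of Hoxc13, and dexamethasone replicate 1 of day 8 had 0.631 and 0.238 TPM. The other 28 libraries were at 0 for both genes. Of 10 markers of spinal cord, 8 that are low in ganglia were summed per library, and this sum was 47.1 TPM in doxorubicin replicate 3, the highest of the 30 libraries, and 18.3 TPM in dexamethasone replicate 1 of day 8, the fifth highest. Saline replicate 3 of day 2, the next highest by that sum at 34.6 TPM, was at 0 for both genes. Aqp4, an astrocyte marker among the 10, was at 0 in every library. The part of spinal cord RNA in these 2 values was not tested.

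Several Hox rows overlap another row on the same strand in their span from start to end. How reads were divided among them is not given in the sources used here. Exons were not compared, so the bases given as shared are those of the spans. A row of any kind on the same strand overlapped 15 of the 39, and another Hox gene overlapped 11. A coding row, Gm28230, averaged 8.55 TPM and shares 21191 bases with Hoxd3 and 2433 with Hoxd4. The row of Hoxc5 spans Hoxc9, Hoxc8 and Hoxc6 and shares 4451 bases with Hoxc10. The row of Hoxa3 spans Hoxa4, Hoxa5 and Hoxa6, and Hoxd3 and Hoxd4 share a stretch of 17232 bases. The levels of these genes are uncertain for that reason. A row on the opposite strand overlapped 14 members, and the libraries were stranded per the labels.

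Noncoding rows also lie within the clusters, and the 2 most abundant of each cluster are given. In the Hoxa cluster Hotairm1, an antisense RNA of the cluster, averaged 11.5 TPM, and an unnamed RNA of the misc_RNA type averaged 9.72 TPM. In the Hoxb cluster Gm53 averaged 22.4 TPM and Hoxb3os, antisense to Hoxb3, 11.6 TPM. In the Hoxc cluster the microRNA genes Mir615 and Mir196a-2 averaged 10.1 and 1.98 TPM. Both are short rows inside the row of Hoxc5 on the same strand, sharing 92 and 85 bases with it. Whether their reads come from Hoxc5 was not tested, so these values do not measure mature microRNA. In the Hoxd cluster Haglr averaged 18.4 TPM and Hoxd3os1 12.3 TPM.

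The coding genes nearest to the clusters had widely different levels. Evx1, a homeobox gene 52695 bases beyond the Hoxa cluster, and Evx2, 8753 bases beyond Hoxd13, were listed at 0 in every library. Mtx2, a mitochondrial protein gene 60661 bases beyond Hoxd1, averaged 33.3 TPM, and Lnpk, 88875 bases beyond Hoxd13, averaged 82.2 TPM. Among the 3 nearest coding genes on each side of the 4 clusters, means ran from 0 to 168.2 TPM, the highest being Atp5g3.

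Most Hox genes held a narrow range over the 30 libraries. Of the 32 tested genes 25 had a coefficient of variation under 25%, and 3 had one of at least 50%, namely Hoxd10, Hoxd11 and Hoxc11. Within groups, where treatment and day are the same, the SD of log2(TPM + 1) was 1.15 for Hoxd11, 1.07 for Hoxd10 and 1.05 for Hoxc11. The median over the tested Hox genes was 0.199, beside 0.226 over all tested genes. Hoxa7 had the smallest of the Hox genes, at 0.106. Of all 25434 tested genes, 98.8, 98.2 and 97.9% had a smaller SD within groups than Hoxd11, Hoxd10 and Hoxc11.

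The sequences before the start sites of the posterior genes that varied together are shown to place them. They are RefSeq windows of the build GRCm38.p6, the 250 bases before an annotated start, written 5′ to 3′ on the gene's strand. Capitals mark matches on either strand to any of the motifs searched. These were the TATA box, spelled TATAAA in the search, and the GC box, which was spelled GGGCGG. The Pbx-Hox motif was TGATTNAT, and the Cdx motif was TTTAT followed by any base and then by guanine. No marked match overlaps another. Hoxd10 is at chr2:74691641-74691890, the Hoxd11 windows are at chr2:74679308-74679557 and chr2:74682073-74682322, all on the plus strand, and Hoxa11 is at chr6:52245811-52246060 on the minus strand.
Hoxd10: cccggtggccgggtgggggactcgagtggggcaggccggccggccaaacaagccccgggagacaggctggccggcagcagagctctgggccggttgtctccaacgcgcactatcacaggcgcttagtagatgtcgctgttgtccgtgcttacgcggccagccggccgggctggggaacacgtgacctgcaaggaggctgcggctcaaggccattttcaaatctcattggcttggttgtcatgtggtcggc
Hoxd11, upstream start: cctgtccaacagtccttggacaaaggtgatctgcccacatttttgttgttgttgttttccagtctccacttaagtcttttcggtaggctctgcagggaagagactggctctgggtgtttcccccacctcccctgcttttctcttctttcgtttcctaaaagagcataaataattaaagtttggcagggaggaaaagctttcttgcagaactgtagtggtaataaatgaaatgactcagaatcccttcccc
Hoxd11, downstream start: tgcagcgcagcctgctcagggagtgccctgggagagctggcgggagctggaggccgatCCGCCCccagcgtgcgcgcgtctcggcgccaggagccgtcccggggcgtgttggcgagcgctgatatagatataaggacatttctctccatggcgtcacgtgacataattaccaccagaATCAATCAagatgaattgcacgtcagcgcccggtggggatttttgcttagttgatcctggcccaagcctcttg
Hoxa11: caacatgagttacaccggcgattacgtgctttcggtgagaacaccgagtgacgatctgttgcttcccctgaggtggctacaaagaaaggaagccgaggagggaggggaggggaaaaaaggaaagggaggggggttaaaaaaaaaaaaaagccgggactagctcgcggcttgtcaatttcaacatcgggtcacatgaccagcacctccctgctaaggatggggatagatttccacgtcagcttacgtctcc

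Windows were found for 22 of the 39 Hox genes, and none for Hoxc11. The downstream Hoxd11 window held 1 GC box and 1 Pbx-Hox match, both on the opposite strand, and the other 3 windows held no match. Of 32851 windows in the table, 32.7% held a GC box, 2.82% the Pbx-Hox motif, 12.4% the TATA box and 9.81% the Cdx motif. The number of CpG pairs was 20 in the Hoxd10 window, 2 and 20 in the Hoxd11 windows and 13 in the Hoxa11 window, beside a median of 6 over all windows. These matches describe the letters only.

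Hoxd11 differed widely between libraries of the same group. On day 2 Hoxd11 was at 4.28, 7.26 and 2.61 TPM in CVAD, 6.14, 0.500 and 4.77 in cyclophosphamide, 14.7, 3.43 and 0.285 in dexamethasone and 0, 5.16 and 2.28 in saline. On day 8 it was at 0.206, 3.36 and 0 TPM in CVAD, 4.86, 1.04 and 2.91 in cyclophosphamide, 3.03, 4.24 and 11.9 in vincristine, 9.495, 0.174 and 3.54 in doxorubicin, 2.07, 8.80 and 3.87 in dexamethasone and 10.7, 5.27 and 4.48 in saline. The highest libraries were dexamethasone replicate 1 of day 2, vincristine replicate 3 and saline replicate 1 of day 8, and the lowest were saline replicate 1 of day 2 and CVAD replicate 3 of day 8, both at 0. CVAD and saline did not overlap on day 8, and every other group of a drug overlapped saline of its day. The share of all genes whose groups of 3 do not overlap is not given, here or for the genes below. A lack of overlap is therefore a description only. In 8 of 10 groups the highest library was over 3 times the lowest or the lowest was at 0.

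Hoxd10 ranked the libraries in much the same order. On day 2 Hoxd10 was at 5.67, 9.17 and 5.64 TPM in CVAD, 10.51, 1.70 and 8.80 in cyclophosphamide, 20.7, 7.64 and 2.17 in dexamethasone and 1.40, 10.1 and 3.998 in saline. On day 8 it was at 1.49, 8.91 and 0.761 TPM in CVAD, 9.72, 4.69 and 7.99 in cyclophosphamide, 2.83, 7.31 and 16.4 in vincristine, 17.5, 1.20 and 7.81 in doxorubicin, 2.39, 14.3 and 6.35 in dexamethasone and 11.8, 8.91 and 6.49 in saline. All groups overlapped saline of their day. The same libraries stood high, with doxorubicin replicate 1 second to dexamethasone replicate 1 of day 2.

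Hoxc11, on another chromosome, followed the same libraries at a lower level. On day 2 Hoxc11 was at 1.69, 1.41 and 1.15 TPM in CVAD, 2.38, 0 and 2.71 in cyclophosphamide, 11.3, 1.54 and 0 in dexamethasone and 0.634, 4.28 and 1.12 in saline. On day 8 it was at 0.344, 1.77 and 0 TPM in CVAD, 1.81, 0.764 and 2.46 in cyclophosphamide, 0.953, 3.04 and 8.10 in vincristine, 8.03, 0.340 and 1.66 in doxorubicin, 1.11, 3.18 and 1.77 in dexamethasone and 5.73, 3.16 and 0.328 in saline. All groups overlapped saline of their day, and 3 of the 10 groups had a library at 0. Group means of Hoxc11 ran from 0.703 TPM in CVAD on day 8 to 4.26 TPM in dexamethasone on day 2.

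Hoxa11, the third member of its paralog group, ran from 0.407 TPM in dexamethasone replicate 3 of day 2 to 3.50 TPM in saline replicate 2 of day 2. Its group means ran from 1.23 TPM in CVAD on day 8 to 2.42 TPM in saline on day 2. In 4 of 10 groups its highest library was over 3 times its lowest.

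**Figure D2:**
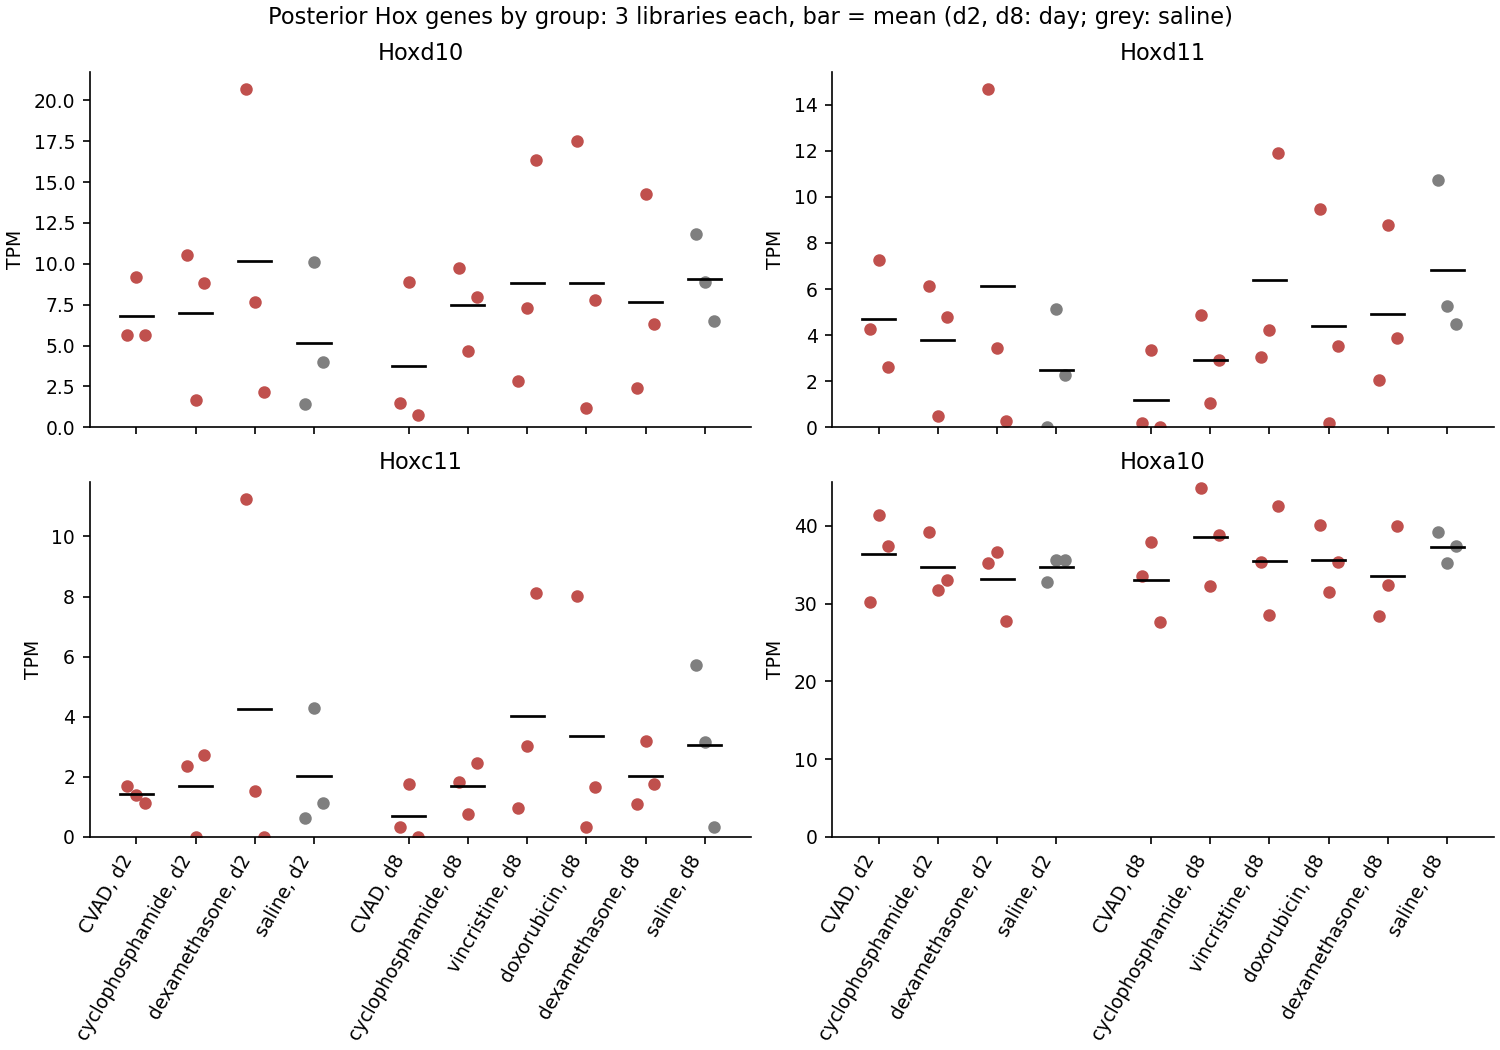
TPM of Hoxd10, Hoxd11, Hoxc11 and Hoxa10 in each group; points are the 3 libraries, bars their mean, red the drugs and grey saline (d2 and d8, day 2 and day 8). The highest library is over 3 times the lowest, or the lowest is at 0, in 7 of 10 groups for Hoxd10 and in 8 for Hoxd11 and Hoxc11, while Hoxa10 stays between 27.7 and 44.8 TPM in all libraries.

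The more abundant members of paralogs 9 and 10 did not show this spread. On day 2 Hoxa10 was at 30.2, 41.4 and 37.5 TPM in CVAD, 39.3, 31.7 and 33.1 in cyclophosphamide, 35.2, 36.6 and 27.8 in dexamethasone and 32.8, 35.6 and 35.7 in saline. On day 8 Hoxa10 was at 33.5, 37.9 and 27.7 TPM in CVAD, 44.8, 32.3 and 38.8 in cyclophosphamide, 35.4, 28.5 and 42.5 in vincristine, 40.1, 31.5 and 35.4 in doxorubicin, 28.4, 32.4 and 39.96 in dexamethasone and 39.2, 35.2 and 37.4 in saline. All groups overlapped saline of their day, and the group means lay between 33.05 and 38.6 TPM.

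Hoxc10 was likewise present in every library. On day 2 Hoxc10 was at 18.6, 22.3 and 21.1 TPM in CVAD, 23.8, 21.4 and 23.3 in cyclophosphamide, 27.6, 21.8 and 16.9 in dexamethasone and 16.2, 23.4 and 19.3 in saline. On day 8 Hoxc10 was at 18.8, 22.5 and 17.3 TPM in CVAD, 15.9, 18.5 and 15.3 in cyclophosphamide, 17.2, 18.8 and 25.99 in vincristine, 24.1, 17.1 and 20.8 in doxorubicin, 20.5, 17.2 and 19.9 in dexamethasone and 24.8, 17.7 and 23.2 in saline. All groups overlapped saline of their day. Cyclophosphamide had the lowest mean on day 8, at 16.6 TPM, beside 21.9 TPM in saline.

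Of paralog 9, Hoxa9 lay between 35.6 and 50.2 TPM in all 30 libraries. On day 2 Hoxa9 was at 43.0, 46.4 and 44.2 TPM in CVAD, 50.2, 46.6 and 45.7 in cyclophosphamide, 47.0, 43.4 and 37.9 in dexamethasone and 37.4, 42.2 and 41.2 in saline. CVAD and cyclophosphamide did not overlap saline on day 2. On day 8 Hoxa9 was at 38.3, 45.7 and 38.2 TPM in CVAD, 47.4, 40.4 and 47.6 in cyclophosphamide, 43.6, 35.6 and 44.7 in vincristine, 49.0, 42.6 and 40.5 in doxorubicin, 39.96, 47.8 and 43.9 in dexamethasone and 41.1, 45.9 and 48.3 in saline. All groups of day 8 overlapped saline.

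Hoxb9 lay between 20.4 and 29.9 TPM. On day 2 Hoxb9 was at 22.4, 29.9 and 27.7 TPM in CVAD, 27.3, 26.99 and 22.8 in cyclophosphamide, 24.6, 26.5 and 24.6 in dexamethasone and 25.6, 27.3 and 27.6 in saline. On day 8 Hoxb9 was at 25.9, 27.1 and 27.1 TPM in CVAD, 21.6, 23.9 and 23.8 in cyclophosphamide, 23.3, 27.4 and 23.6 in vincristine, 24.3, 23.4 and 25.2 in doxorubicin, 26.4, 20.4 and 23.5 in dexamethasone and 28.2, 21.4 and 25.4 in saline. All groups overlapped saline of their day.

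The share of Hox TPM held by paralogs 10 to 13 did not separate the groups. On day 2 it averaged 9.93 ± 0.9997% in CVAD, 9.63 ± 1.83% in cyclophosphamide, 10.6 ± 3.18% in dexamethasone and 9.60 ± 1.73% in saline (SD, n = 3 each, as on day 8). On day 8 it averaged 8.53 ± 1.60% in CVAD, 10.2 ± 1.71% in cyclophosphamide, 10.8 ± 2.62% in vincristine, 10.4 ± 2.54% in doxorubicin, 9.95 ± 1.32% in dexamethasone and 11.1 ± 1.26% in saline.

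Whether drugs changed the Hox genes was tested by limma on log2(TPM + 1) in 1 model of all 30 libraries, with Benjamini-Hochberg adjusted p-values over 25434 genes. None of the 32 tested Hox genes passed the threshold of 0.05 in any of the 13 comparisons. Of all tested genes, 0.0432% passed between CVAD and saline on day 2, 0.0118% between cyclophosphamide and saline on day 2 and 0.00393% between dexamethasone and saline on day 2. On day 8 the shares were 0.00786% for cyclophosphamide and 0% for CVAD, vincristine, doxorubicin and dexamethasone, each against saline. Between saline on day 8 and on day 2 the share was 0.00393%. For the difference of a drug's response between the days, day 8 minus day 2, it was 0.0826% for CVAD and 0% for cyclophosphamide and dexamethasone, and for any difference among the 10 groups it was 0%. Missing the threshold is no evidence of equal levels.

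An unadjusted p under 0.05 was reached by 0 to 5 of the 32 Hox genes in a comparison. In CVAD on day 2 there were 3 of 32, beside 8.19% of all genes, and 2 of the 3 were higher, beside 6.97%. In cyclophosphamide on day 2 there were 5, beside 7.51%, of which 1 was lower, beside 1.53%. In dexamethasone on day 2 there were 2, beside 5.37%, of which 1 was higher, beside 4.31%. All 3 comparisons are against saline of day 2 and share its libraries.

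On day 8 CVAD had 1 of 32, beside 5.98%, and it was lower, beside 2.78%. Cyclophosphamide had 1, beside 5.76%, also lower, beside 4.57%. Vincristine had 2, beside 3.44%, of which 1 was higher, beside 2.04%. Doxorubicin had 0, beside 3.35% of all genes, 1.48% higher and 1.87% lower. Dexamethasone had 0, beside 3.26%, 1.25% higher and 2.01% lower. These comparisons share the saline libraries of day 8.

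Between saline on day 8 and on day 2 there were 0, beside 6.93%, with 5.53% higher. The CVAD response gave 5, beside 8.63%, of which 4 were lower, beside 6.29%. The cyclophosphamide response gave 4 (9.55%) and the dexamethasone response 0 (4.92%). Over the 10 groups 2 genes reached it (5.61%). As shares of the 32 Hox genes the highest counts are 15.6%, for cyclophosphamide on day 2, beside 7.51% of all genes, and for the CVAD response, beside 8.63%.

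Taken by direction, 22 of 32 Hox genes were higher in CVAD than in saline on day 2, where 65.9% of all genes were higher, and their median log2 fold change was 0.091, beside 0.069 over all genes. Cyclophosphamide on day 2 had 25 of 32 higher, beside 64.7%, with a median of 0.15, beside 0.062. Dexamethasone on day 2 had 21 of 32 higher, beside 65.3%. Saline on day 8 had 19 of 32 higher than saline on day 2, beside 64.5%. On day 8 the Hox genes were higher in 12 of 32 for CVAD (54.2% of all genes) and 9 for cyclophosphamide (37.9%). Vincristine, doxorubicin and dexamethasone had 11 each, beside 54.7, 43.9 and 43% of all genes. The median Hox log2 fold change on day 8 ran from -0.13 in cyclophosphamide to -0.037 in dexamethasone.

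**Figure D3:**
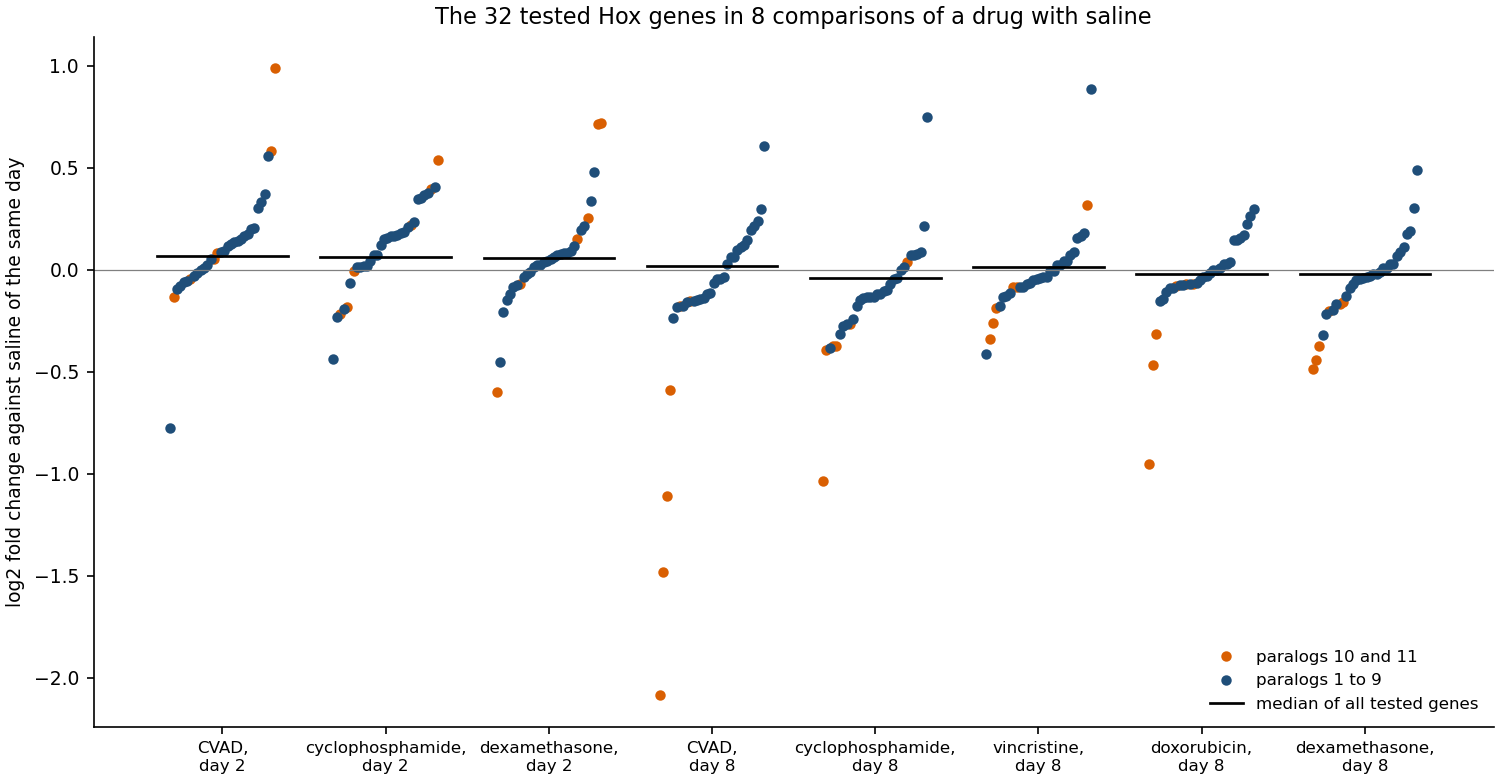
Log2 fold change of the 32 tested Hox genes against saline of the same day in 8 comparisons, sorted within each; orange points are paralogs 10 and 11, blue points paralogs 1 to 9, and black bars the median of all tested genes. Most points lie near the median of all genes, and the largest departures, down to -2.09, are those of the posterior genes in CVAD on day 8, none of which passed the test.

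The smallest adjusted p of a Hox gene was that of Hoxc5, a gene of the neck and forelimb level, in CVAD on day 2. On day 2 Hoxc5 was at 25.9, 30.7 and 29.3 TPM in CVAD, 26.6, 21.9 and 28.8 in cyclophosphamide, 23.7, 25.8 and 17.3 in dexamethasone and 17.5, 19.95 and 19.9 in saline. CVAD and cyclophosphamide did not overlap saline, and dexamethasone did through its replicate 3. In limma the log2 fold change was 0.56 ± 0.13 (SE) in CVAD, with an adjusted p of 0.113. For cyclophosphamide it was 0.41 ± 0.13 with an adjusted p of 0.444. On day 8 Hoxc5 was at 17.8, 21.9 and 19.96 TPM in CVAD and 22.4, 22.1 and 23.3 in saline, all of CVAD below all of saline. The difference between the responses, day 8 minus day 2, was -0.74 ± 0.18 with an adjusted p of 0.123. The difference for cyclophosphamide was -0.65 ± 0.18 with an adjusted p of 0.211.

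The call of Hoxc5 depended on the settings. With library quality weights Hoxc5 passed in CVAD on day 2 (limma adjusted p = 0.0349) and in the CVAD response (0.0489). Without dexamethasone replicate 3 of day 2 it passed in both as well (0.0251 and 0.0375). Over the alternatives the adjusted p in CVAD on day 2 ran from 0.0251 to 1. Libraries numbered 1 to 8 in the labels are all the CVAD and cyclophosphamide libraries of day 2 and 2 of the 3 dexamethasone libraries. The labels do not mark them as a batch and give no reason for a cut after library 8, which splits dexamethasone of day 2. In these 8 Hoxc5 was at 21.9 to 30.7 TPM, with a median of 26.2, and in the other 22 at 16.7 to 25.2 TPM, with a median of 20.6. With a term for these 8 libraries the log2 fold change of Hoxc5 on day 2 was 0.068 in CVAD and -0.082 in cyclophosphamide, and the difference between the responses was -0.25 for CVAD and -0.16 for cyclophosphamide. No saline library is among these 8, so library set and drug cannot be told apart for CVAD and cyclophosphamide on day 2. Only dexamethasone on day 2 has libraries in both sets, so the term rests on its replicates 1 and 2 against its replicate 3.

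**Figure D4:**
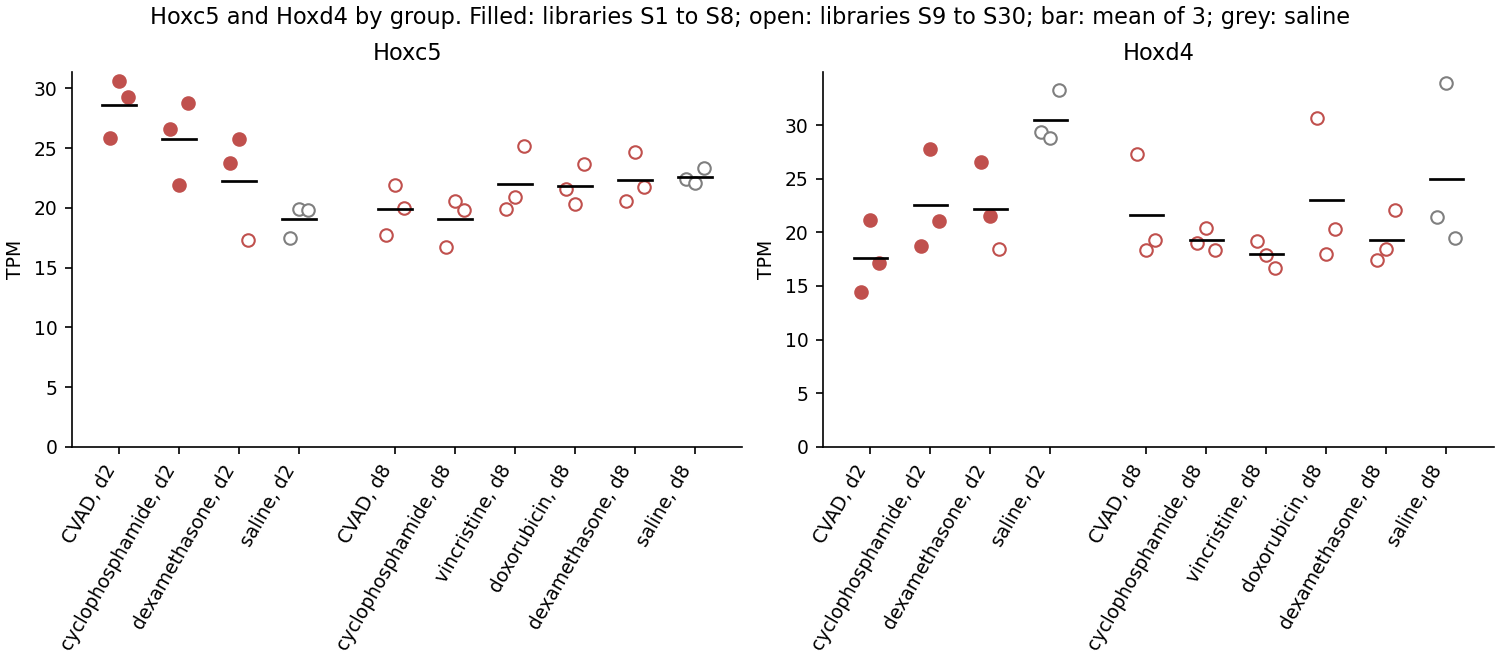
TPM of Hoxc5 and Hoxd4 in each group; points are libraries, filled for libraries 1 to 8 and open for libraries 9 to 30, bars are means of 3, red the drugs and grey saline. Hoxc5 is above 21 TPM in all 8 filled libraries and at 17.3 TPM in the open dexamethasone library of day 2. The group mean of Hoxd4 is highest in saline on day 2, and its highest library, at 33.9 TPM, is in saline on day 8.

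Hoxd4, which acts at the border of hindbrain and spinal cord, was next. On day 2 Hoxd4 was at 14.4, 21.1 and 17.1 TPM in CVAD, 18.8, 27.7 and 21.1 in cyclophosphamide, 26.5, 21.5 and 18.5 in dexamethasone and 29.4, 28.8 and 33.2 in saline. All 3 drug groups lay below the same 3 saline libraries without overlap, so the 3 separations are not independent. The log2 fold change in limma was -0.77 ± 0.20 in CVAD (adjusted p = 0.169), -0.44 ± 0.20 in cyclophosphamide (adjusted p = 0.655) and -0.45 ± 0.20 in dexamethasone (adjusted p = 0.909). Markers of spinal cord were also high in saline on day 2: the sum of the 8 was 5.38 to 21.3 TPM in CVAD, 0 to 3.05 in cyclophosphamide, 0.266 to 6.51 in dexamethasone and 4.90 to 34.6 in saline. Of all 10 spinal cord markers 8 passed the filter, and their median log2 fold change was -0.39 in CVAD, -1.69 in cyclophosphamide and -1.52 in dexamethasone. None passed the adjusted threshold in limma, and an unadjusted p under 0.05 was reached by 0 of 8 in CVAD (8.19% of all genes), 5 in cyclophosphamide (7.51%) and 5 in dexamethasone (5.37%). A marker score was the mean log2(TPM + 1) over a whole list, for spinal cord all 10 genes and not only the 8 summed. With the spinal cord and muscle scores as covariates the value of Hoxd4 was -0.80 in CVAD and -0.55 in dexamethasone. On day 8 Hoxd4 was at 27.3, 18.3 and 19.3 TPM in CVAD and 21.4, 33.9 and 19.4 in saline, which overlapped. Its log2 fold change on day 8 was -0.18 in CVAD, -0.32 in cyclophosphamide and -0.41 in vincristine. It was -0.11 in doxorubicin and -0.32 in dexamethasone, with an SE of 0.20 in each and the same saline libraries throughout. The value for CVAD on day 2 ran from -0.91 to -0.65 when any 1 library was left out, and over all alternatives its smallest adjusted p was 0.0734. With the term for libraries 1 to 8, which rests on the dexamethasone libraries of day 2 alone, the value for dexamethasone was -0.69. For CVAD on day 2 it was -1.13 with that term.

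Other Hox genes with the smallest p in a comparison are given by value. Hoxc4 had a log2 fold change of 0.37 ± 0.17 in CVAD on day 2 (limma adjusted p = 0.562), and it was at 30.9, 34.2 and 31.6 TPM in CVAD and 21.5, 27.8 and 24.97 in saline. Hoxc8 had 0.34 ± 0.12 in dexamethasone on day 2 (adjusted p = 0.826), and it was at 30.3, 27.7 and 23.7 TPM in dexamethasone and 21.6, 20.9 and 21.2 in saline. In both cases the drug libraries all lay above saline. With the term for libraries 1 to 8, which rests on the dexamethasone libraries of day 2 alone, the value of Hoxc4 in CVAD was -0.14. All CVAD libraries of day 2 and no saline library are in that set, so the term cannot settle the direction.

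On day 8 the largest Hox difference was in posterior genes. Hoxd11 had a log2 fold change of -2.09 ± 0.86 in CVAD against saline (limma adjusted p = 0.730) and Hoxd10 had -1.48 ± 0.80 (adjusted p = 0.879). Without CVAD replicate 2 of day 8 the value of Hoxd10 was -2.23, and without CVAD replicate 3 of day 8 it was -0.98. For Hoxd11 the difference between the CVAD responses, day 8 minus day 2, was -3.07 ± 1.21 (adjusted p = 0.418). The value of Hoxd11 on day 8 ran from -2.75 to -1.69 when any 1 library was left out, and it was -3.76 with a pseudocount of 0.1. With the term for libraries 1 to 8, which rests on the dexamethasone libraries of day 2 alone, the response value was -0.38. CVAD on day 8 had the lowest group mean of Hoxd10, Hoxd11, Hoxc11, Hoxa11 and Hoxa10 among the 10 groups. Hoxc10 was lowest in cyclophosphamide on day 8 instead, at 16.6 TPM, beside 19.5 TPM in CVAD. Hoxd10, Hoxd11 and Hoxc11 varied together between libraries within groups, as did Hoxa11 with Hoxd11, so their low means are not independent. Group means of Hoxa10 ran only from 33.05 to 38.6 TPM. The mean of Hoxd11 was 1.19 TPM in CVAD and 6.82 TPM in saline on day 8, the highest of the 10 groups, but 2.48 TPM in saline on day 2.

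In the single drugs of day 8, which share the saline libraries, the log2 fold change of Hoxd11 was -1.03 ± 0.86 in cyclophosphamide, -0.19 ± 0.86 in vincristine, -0.95 ± 0.86 in doxorubicin and -0.49 ± 0.86 in dexamethasone, each with a limma adjusted p of 1. The genes of smallest p with these drugs were others. Hoxb2, a gene of hindbrain motor neurons, was at 9.65, 12.6 and 10.3 TPM in vincristine and 5.85, 7.55 and 3.44 in saline, without overlap (log2 fold change 0.88 ± 0.41, limma adjusted p = 1). Hoxc10 had -0.37 ± 0.17 in cyclophosphamide (adjusted p = 0.856). In doxorubicin the smallest p was that of Hoxb8, at 0.22 ± 0.13, and in dexamethasone that of Hoxb3, at -0.20 ± 0.12, both with an adjusted p of 1. Without doxorubicin replicate 3 the value of Hoxb8 was 0.079, and without saline replicate 1 of day 8 that of Hoxb3 was -0.041. In saline itself, day 8 against day 2, the smallest p was that of Hoxc5, at 0.23 ± 0.13 (adjusted p = 0.747).

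The posterior genes varied together between libraries within groups. For each of the 496 pairs of tested Hox genes, log2(TPM + 1) was correlated over 30 libraries after the group means were removed, with p-values from 100000 permutations within groups adjusted over the pairs. Hoxd10 and Hoxd11, neighbours on chromosome 2, had the largest r, 0.97 (rho 0.97, permutation p = 1e-05 for each, the smallest the permutations can give, adjusted p = 0.00165). Without the 2 libraries farthest from the median r was 0.96, and it was 0.99 on day 2 and 0.97 on day 8. Hoxc11, on chromosome 15, had r = 0.90 with Hoxd11 (rho 0.89) and r = 0.90 with Hoxd10 (rho 0.90), each with a permutation p of 1e-05 for both measures. Without the 2 farthest libraries these were 0.87 and 0.88.

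The other 3 of the 6 largest pairs joined less variable genes. Hoxa9 and Hoxd8 had r = 0.84 (rho 0.84, permutation p = 3e-05 and 2e-05, adjusted p = 0.00372, r = 0.81 without the 2 farthest libraries). Hoxa6 and Hoxc10 had r = 0.77 (rho 0.77, permutation p = 0.00025 and 0.00012, adjusted p = 0.0138, r = 0.75 without the 2 farthest). Hoxa10 and Hoxb5 had r = 0.76 (rho 0.73, permutation p = 7e-05 and 0.00026, adjusted p = 0.00579, r = 0.72 without the 2 farthest). Hoxd3 and Hoxd4, whose rows overlap in span, had r = -0.45 (adjusted p = 0.170).

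In all, 46 of 496 pairs passed, all positive, 14 of 115 pairs within a cluster and 32 of 381 between clusters. Among paralogs 10 and 11 it was 11 of 15 pairs, with a median r of 0.69, beside 0.22 over all pairs. Much of this depended on scaling. After each library was scaled by its median ratio to the other libraries, the median r of all pairs was 0.072 and 7 pairs passed, all among the 46. The 3 pairs of Hoxd10, Hoxd11 and Hoxc11 kept r of 0.97, 0.90 and 0.89, and Hoxa9 with Hoxd8, Hoxa11 with Hoxd11, Hoxa10 with Hoxb5 and Hoxa4 with Hoxa6 passed too. Without libraries 1 to 8 the count was 12, and leaving out any 1 library gave 28 to 53. Without vincristine replicate 3 it was 28 and without CVAD replicate 2 of day 8 it was 30.

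To find genes of any kind that vary with the posterior Hox genes, the level of Hoxd11 was added to the limma model as a covariate beside the group means. This test, and Hoxd11 as its covariate, were chosen after the values were seen. Of 25433 other genes, 4 passed, or 0.0157%, all with a positive slope. Hoxd10 had a slope of 0.91 ± 0.054 (SE) log2 units per log2 unit of Hoxd11 (adjusted p = 2.05e-10) and Hoxc11 had 0.82 ± 0.088 (adjusted p = 1.94e-05). The other two were not Hox genes. Srd5a2 on chromosome 17, which encodes a steroid 5-alpha reductase, had 1.11 ± 0.066 (adjusted p = 2.05e-10), and Penk on chromosome 4, which encodes the precursor of enkephalins, had 0.35 ± 0.059 (adjusted p = 0.0385). The median slope of all genes was 0.026, and 75.4% of genes had a positive slope.

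Srd5a2 was at 0 to 1.18 TPM in the 6 libraries with the least Hoxd11, and it was highest in dexamethasone replicate 1 of day 2 and vincristine replicate 3, the 2 with the most. On day 2 Srd5a2 was at 5.54, 8.44 and 4.21 TPM in CVAD, 5.97, 0 and 7.18 in cyclophosphamide, 23.3, 5.68 and 0.530 in dexamethasone and 1.18, 12.4 and 3.29 in saline. On day 8 Srd5a2 was at 0.433, 5.52 and 0.867 TPM in CVAD, 8.70, 2.34 and 6.58 in cyclophosphamide, 4.08, 5.19 and 16.7 in vincristine, 16.2, 0 and 2.55 in doxorubicin, 2.91, 11.1 and 3.15 in dexamethasone and 12.5, 8.49 and 3.92 in saline. All groups overlapped saline of their day. Srd5a2 passed in all 30 fits that left out 1 library and in all 11 other alternatives. Penk passed in 12 of those 30 and 2 of those 11, so its call rests on single libraries and settings.

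**Figure D5:**
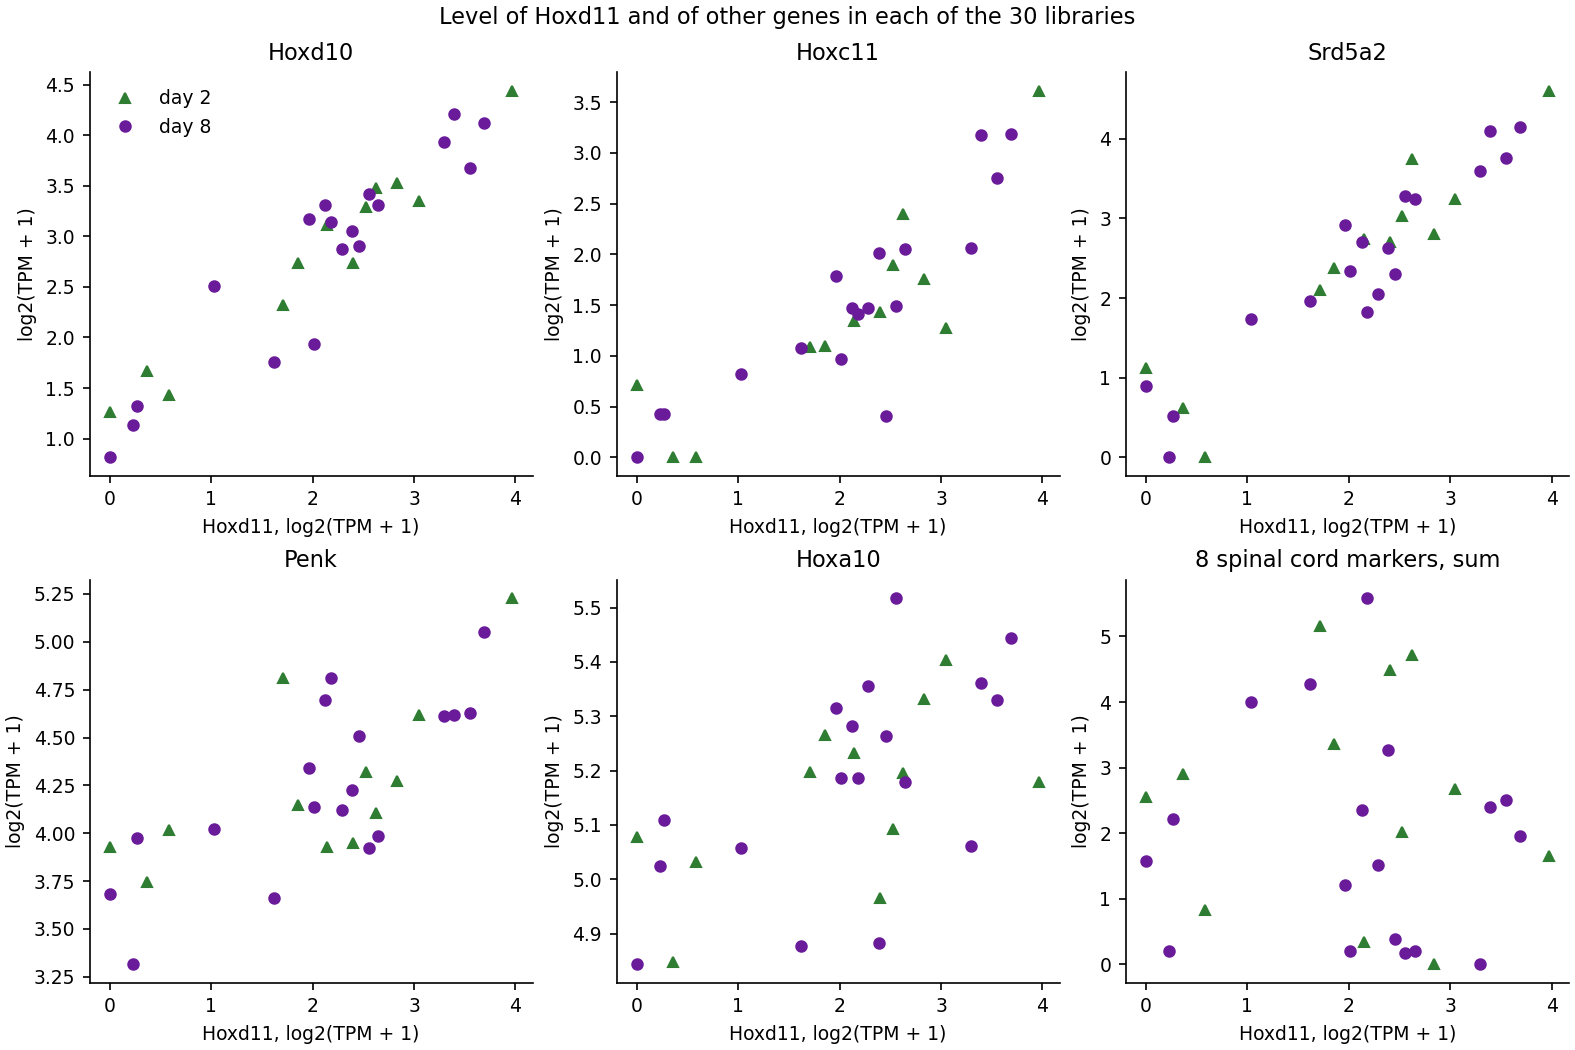
Level of Hoxd10, Hoxc11, Srd5a2, Penk, Hoxa10 and the sum of 8 spinal cord markers against that of Hoxd11 in each of the 30 libraries, all as log2(TPM + 1); triangles are day 2 and circles day 8. Hoxd10, Hoxc11 and Srd5a2 climb with Hoxd11 over the whole range, Hoxa10 spans less than 1 log2 unit, and the spinal cord marker sum is highest, at 47.1 TPM, in a library with 3.54 TPM of Hoxd11.

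Other Hox genes had smaller slopes on Hoxd11, and none passed. Hoxa11 had 0.32 ± 0.067 (limma adjusted p = 0.250), Hoxc10 0.14 ± 0.031 (adjusted p = 0.475) and Hoxa10 0.11 ± 0.029 (adjusted p = 0.634). Among anterior genes Hoxc4 had 0.11 ± 0.033 and Hoxa6 0.096 ± 0.055. Hoxb9, Hoxd1 and Hoxb2 had -0.0026, -0.0078 and 0.019. Hoxa11 passed in 1 of the 30 fits that left out a library, the fit without doxorubicin replicate 2.

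Hotair, a noncoding RNA transcribed from the opposite strand between Hoxc11 and Hoxc12, was also looked at after its values were seen. It averaged 0.473 TPM. Its highest values were 2.95 TPM in vincristine replicate 3, 2.23 in dexamethasone replicate 1 of day 2 and 1.82 in saline replicate 1 of day 8, the 3 libraries with the most Hoxd11. It was not among the genes called on Hoxd11, but it was when the level of Hoxc11 was the covariate.

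Scores of cell type markers were set beside Hoxd11 in the same way, after the group means were removed, in 8 lists with p-values adjusted over the 8. The spinal cord score covers all 10 markers, with Slc17a7 and Slc1a2, which were left out of the sum of 8. This score had r = 0.067 with Hoxd11 (rho -0.0096, permutation p = 0.817 and 0.968) and r = -0.097 without the 2 farthest libraries. The muscle score had r = -0.091 (rho -0.16, permutation p = 0.703 and 0.497). The largest was the Schwann cell score, with r = 0.39 (rho 0.42, permutation p = 0.0533 and 0.0564, adjusted p = 0.264), and r = 0.31 without the 2 farthest. The fibroblast score had r = 0.38 (rho 0.45, permutation p = 0.0659 and 0.041, adjusted p = 0.264, r = 0.25 without the 2 farthest). The sensory neuron score had r = 0.24 (rho 0.32, permutation p = 0.305 and 0.147). With the spinal cord and muscle scores as covariates the slope test called 3 genes, which were Hoxd10, Hoxc11 and Srd5a2.

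Partners and regulators of Hox genes were examined as lists. All 9 genes of the Pbx, Meis and Pknox families, the DNA-binding partners, were tested, and 0 passed in any comparison. Their sum was 340.1 to 406.1 TPM per library. The smallest p over the 10 groups were those of Pknox1 (0.00397, limma adjusted p = 0.458) and Meis1 (0.0407, adjusted p = 0.855). On day 8 Pknox1 was at 37.8, 41.6 and 38.5 TPM in CVAD and 31.4, 23.1 and 27.7 in saline, without overlap (log2 fold change 0.52 ± 0.15, limma adjusted p = 0.458). On day 2 Pknox1 was at 24.4, 24.4 and 20.5 TPM in CVAD and 23.8, 35.0 and 26.8 in saline, which overlapped.

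Of 22 Polycomb and Trithorax genes, which hold Hox clusters silent or active, 21 were tested and 0 passed in any comparison. Kmt2a, a Trithorax methyltransferase, was listed at 0 in every library. Whether this reflects absence of the transcript or the counting of the row was not tested. The smallest p over the 10 groups were those of Jarid2, an accessory Polycomb factor (0.00266, limma adjusted p = 0.412), and Eed, a core subunit (0.127, adjusted p = 0.999). On day 8 Jarid2 was at 27.7, 24.4 and 28.6 TPM in cyclophosphamide and 36.4, 30.9 and 39.7 in saline, without overlap (log2 fold change -0.39 ± 0.11, adjusted p = 0.496). Of 10 upstream regulators 6 were tested and of 12 other genes of axial or limb position 3, and 0 passed. The Cdx genes Cdx1, Cdx2 and Cdx4, which switch on posterior Hox genes in the embryo, were at 0 in every library, as were Pitx1 and Tbx5, which mark hindlimb and forelimb. In CVAD on day 2, 6 of 9 partners were higher and 3 lower, 16 and 5 of the Polycomb and Trithorax genes, 5 and 1 of the upstream regulators and 1 and 2 of the position genes, where 65.9% of all genes were higher. On day 8 in CVAD the partners were 4 higher and 5 lower and the Polycomb and Trithorax genes 13 and 8, where 54.2% of all genes were higher. With an unadjusted p under 0.05 in CVAD on day 2, which 8.19% of all genes had, there were 0 of 9 partners, 2 of 21 Polycomb and Trithorax genes, 2 of 6 upstream regulators and 0 of 3 position genes. No slope on Hoxd11 passed in the 4 lists.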

How the data were processed

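The authors deposited 1 table of TPM per gene for all 30 libraries, and all its sample columns were used. Per the labels' protocols, 60 to 80 ng of total RNA was depleted of ribosomal RNA and made into stranded libraries. Per the submitters' processing notes, FastQC 0.12.1, STAR 2.7.10b and StringTie 2.2.1 were used, with the builds mm10 and GRCm39 named without roles. How overlapping genes were resolved is not given in the sources used here. Columns summed to 999910 to 999941 TPM.

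Genes with at least 1 TPM in at least 3 libraries (25434, of them 15314 coding) were fitted as log2(TPM + 1) in limma 3.58.1 (R 4.3.3), with 1 mean per group, moderated variances with a trend, and 2-sided p-values. This scale understates changes of low genes. Correlations used numpy 2.4.6 and figures matplotlib 3.10.9. Scripts were tested on simulated data.

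The Hox genes and lists were chosen with earlier results of these data known. Named were the 3 Hox genes of smallest p in each comparison (the text gives a part), the 2 most abundant of paralogs 9 to 11, the 6 largest pairs and the 2 smallest p per list. Hoxd10 and Hoxa11 values, Srd5a2, Penk and Hotair were chosen after their values were seen. Replicates are numbered in accession order. Alternatives were a pseudocount of 0.1, other filters, median-ratio scaling, coding genes alone, a model per day, library quality weights, a term for libraries 1 to 8, spinal cord and muscle scores, and each library left out. Those of the slope on Hoxd11 were added after the data were seen. The labels do not mark libraries 1 to 8 as a batch. Of the Hox genes, 1 is counted but not reported here by its values.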

Additional observations from a re-analysis of the deposited data

How the results depend on the processing

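The count of Hox genes past the threshold was the same in 498 of 502 pairs of a comparison with an alternative. It was 1 instead of 0 with library quality weights in CVAD on day 2 and in the CVAD response between days, through Hoxc5 in each. Leaving out 1 of the 30 libraries gave 0 to 1 in these 2 comparisons and 0 in the other 11. With the term for libraries 1 to 8, Hoxc4 in CVAD on day 2 was at -0.14, the opposite of its main direction. In cyclophosphamide on day 2 Hoxc5 was at -0.082 and Hoxa9 at -0.012, also opposite to their main direction. The term rests on the dexamethasone libraries of day 2 alone, and the cause was not tested. Taking paralogs 9 to 13 as posterior raised the median share of Hox TPM to 25.3%, since more genes are summed, and leaving out 1 library gave 9.996 to 10.1%. The median log2 fold change of all genes in the cyclophosphamide response was -0.11 as deposited and near 0 after median-ratio scaling, and no call of a Hox gene changed. Pairs of Hox genes past the threshold numbered 7 after median-ratio scaling, 12 without libraries 1 to 8, and 28 to 53 with 1 library left out. The genes called on Hoxd11 numbered 2 with day 2 libraries alone and 2 with day 8 libraries alone, which have fewer samples, and 3 to 5 with 1 library left out. No paired analysis was possible because the labels give no replicate numbers that join libraries across groups. The depth of the libraries is unknown, so values of 0 are listed as such and no detection limit is given. A listed 0 need not mean that the transcript was absent.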
